A study of Mus musculus with 140 samples.

Results

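Adipoq, Plin1, Cfd, Fabp4, Cidec and Scd1 are 6 genes of the mature fat cell, and their transcripts were followed here in whole gastrocnemius, the calf muscle of the mouse. They were taken as the rows of the deposited tables whose Ensembl gene identifiers carry these symbols in the GRCm38 annotation. All 6 were present among the 11461 genes in the tables. The muscle came from male C57B6/J mice of 10 to 11 weeks kept in 12 h of light and 12 h of darkness with free access to chow, with lights on at zeitgeber time (ZT) 0 and off at ZT12. Mice ran 1 acute bout of 1 h in the early rest phase from ZT3 (rest arm) or in the early active phase from ZT15 (active arm), while sham mice spent the same hour on a treadmill that did not move. Tissue was taken at 0, 4, 8, 12, 16 or 20 h after the treadmill, so that each arm sampled the same 6 clock times (ZT0, 4, 8, 12, 16 and 20) at different hours after handling. Of 140 labelled samples 3 are not analysed here, which left 24 groups, 18 with 6 libraries, 5 with 5 and 1 with 4.

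Adipocytes store triglyceride in a single large lipid droplet and lie between the fascicles of skeletal muscle and around it. Their gene programme is driven by the nuclear receptor PPARγ together with C/EBP transcription factors. Adipoq encodes adiponectin, a hormone secreted almost exclusively by adipocytes, and Cfd encodes adipsin (complement factor D), a secreted serine protease that activates the alternative complement pathway. Plin1 encodes perilipin 1, which coats the adipocyte lipid droplet and gates access of lipases, and Cidec encodes a droplet protein (FSP27) that promotes droplet fusion. Fabp4 encodes a cytosolic fatty acid carrier that is also expressed in capillary endothelium and macrophages. Scd1 encodes stearoyl-CoA desaturase 1, which makes monounsaturated fatty acids and is also controlled by the lipogenic factors SREBP-1c and ChREBP. In a whole-muscle sample, a change in the number of fat cells and a change in RNA per fat cell cannot be told apart.

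Promoter windows were searched because the levels of the 6 genes moved together between libraries, as described below. Only windows that held a motif match are shown, from 3 of the genes. RefSeq start sites on GRCm38.p6 were available for 4 of the 6 genes (Adipoq, Plin1, Cfd and Cidec, the last with a pair of starts), each with 250 bases before and 50 bases after the start. Fabp4 and Scd1 are named only. Capitals mark matches, on either strand, to CCAAT (a box bound by NF-Y) in Adipoq and to TTGCNNAA (a C/EBP-type motif) in Plin1 and Cidec. The Adipoq window lies at chr16:23146286-23146585 on the plus strand, the Plin1 window at chr7:79732727-79733026 on the minus strand and the Cidec window at chr6:113434715-113435014 on the minus strand, each written 5′ to 3′ on its gene's strand.
Adipoq: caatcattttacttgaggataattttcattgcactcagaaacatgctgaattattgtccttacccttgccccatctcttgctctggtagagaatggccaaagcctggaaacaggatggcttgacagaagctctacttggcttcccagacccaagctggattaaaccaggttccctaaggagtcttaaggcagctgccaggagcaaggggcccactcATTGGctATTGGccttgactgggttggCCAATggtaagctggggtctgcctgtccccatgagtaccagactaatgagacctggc
Plin1: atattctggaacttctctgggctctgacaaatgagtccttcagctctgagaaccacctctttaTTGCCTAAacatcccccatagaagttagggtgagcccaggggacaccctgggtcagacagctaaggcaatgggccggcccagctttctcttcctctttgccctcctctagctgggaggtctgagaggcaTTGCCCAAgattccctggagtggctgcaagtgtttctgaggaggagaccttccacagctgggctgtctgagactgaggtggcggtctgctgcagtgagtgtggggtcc
Cidec: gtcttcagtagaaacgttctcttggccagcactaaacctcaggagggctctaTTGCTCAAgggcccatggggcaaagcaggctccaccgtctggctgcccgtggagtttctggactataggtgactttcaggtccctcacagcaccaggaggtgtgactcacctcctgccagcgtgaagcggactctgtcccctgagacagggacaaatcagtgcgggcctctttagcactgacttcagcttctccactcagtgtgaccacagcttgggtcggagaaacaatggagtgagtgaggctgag

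The Adipoq window held 3 CCAAT matches, which begin at -34, -27 and -7 relative to the start site. The Plin1 window held TTGCNNAA at -187 and -58, and the Cidec window held it at -198. No match overlapped another. The other 3 motifs searched were the TATA box (TATAAA), a nuclear receptor element (AGGTCA) and an E-box (CACGTG). They had no match in any of the 5 windows, nor did the Cfd window or the other Cidec window hold any of the 5 motifs. Of 32851 RefSeq windows of the same length, 37.4% held CCAAT, 10.8% held TTGCNNAA, 16.3% held the receptor element, 13.6% held the TATA box and 7.15% held the E-box. These matches describe the letters in the windows and not binding.

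Values are the authors' scaled reads per M (M is 1e+06), whole reads divided by a scaled library size. The libraries held 2.19 to 27.6 M reads over the 11461 genes, with a median of 11.0 M. The tissue label was checked against fast fibre genes: Mylpf, the fast myosin regulatory light chain, averaged 34155 scaled reads per M and Myh4, the type IIB myosin heavy chain, averaged 16260. Among other white adipocyte genes, Lep (leptin) averaged 2.29, Lipe (hormone-sensitive lipase) 7.08 and Retn (resistin) 9.32 scaled reads per M. Levels in this list differed widely, with means of 971 for Car3, 303 for Slc2a4 and 241 for Cd36. Libraries differed in how their values depended on transcript length. This length slope, the change of log2 value per doubling of annotated length against the mean of all libraries, ran from -0.29 to 0.41. Length here is the number of bases covered by all annotated exons of a gene. The labels do not say which animal each replicate came from, so p-values measure the spread between these libraries.

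Fabp4, Scd1 and Cfd had the highest values of the 6. Fabp4 (ENSMUSG00000062515.3, chr3:10204088-10208576, minus strand) averaged 269 scaled reads per M, with 82.1 in the lowest and 939 in the highest library. Scd1 (ENSMUSG00000037071.2, chr19:44394455-44407879, minus strand) averaged 149.6, from 29.5 to 485. Cfd (ENSMUSG00000061780.6, chr10:79890853-79892655, plus strand) averaged 121.5, from 27.5 to 398. These 3 genes had at least 186 reads in every library. Adipoq (ENSMUSG00000022878.5, chr16:23146536-23158028, plus strand) averaged 22.2, from 4.50 to 87.2. The droplet genes were the scarcest: Cidec (ENSMUSG00000030278.11, chr6:113424634-113435760, minus strand) averaged 8.02, from 1.11 to 25.8, and Plin1 (ENSMUSG00000030546.14, chr7:79720218-79732903, minus strand) averaged 5.79, from 0.417 to 20.4. Plin1 rested on as few as 3 reads in the library with the fewest and on a median of 57, and Cidec on as few as 7 and a median of 87.

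Per kb of the longest principal transcript, the order of levels was Fabp4 with 301 scaled reads per M per kb, Cfd with 131.8, Scd1 with 30.95, Adipoq with 17.2, Cidec with 4.66 and Plin1 with 2.06. With this length, the step from Fabp4 to Cfd, from Cfd to Scd1 and from Adipoq to Cidec had the same direction in all libraries. Cidec lay above Plin1 in all but 1 library and Scd1 above Adipoq in all but 9, so that the neighbours Scd1 and Adipoq had the order least uniform across libraries.

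Between libraries of 1 group the adipocyte genes varied more than most genes. The standard deviation (SD) of log2(value + 0.5) within groups was 0.66 for Adipoq, 0.65 for Fabp4, 0.63 for Cfd, 0.58 for Scd1, 0.57 for Cidec and 0.56 for Plin1, while the median over all genes was 0.41. Among the 11461 genes they ranked from the 82.7th percentile for Plin1 to the 92.2nd for Adipoq. Among genes within 0.5 log2 of their own mean level, Scd1 lay at the 68.5th percentile, Fabp4 at the 69.5th and Adipoq, the highest, at the 94.3rd. The median SD of genes at the level of Fabp4 was 0.53, and 0.45 at that of Scd1. Counting error accounted for little of this, with an expected SD of 0.03 for Fabp4 and 0.19 for Plin1, the lowest and highest of the 6. The groups held between 26.2% of the total log2 variance of Fabp4 and 48.8% of that of Plin1, against a median of 22.4% over all genes.

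**Figure D1:**
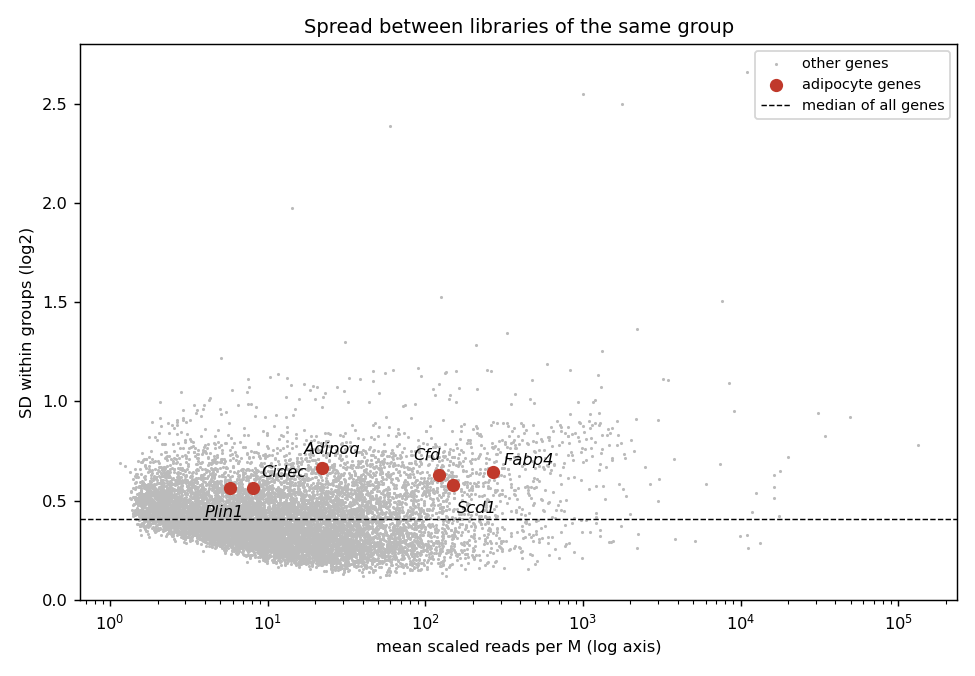
SD of log2(value + 0.5) between libraries of the same group (vertical axis, log2 units) against mean scaled reads per M (horizontal log axis) for each of the 11461 genes. Red points are the 6 adipocyte genes, which all lie above the dashed median of 0.41, between 0.56 and 0.66.

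3 libraries, picked after their values were seen, stood apart in several of the genes at once. Replicate 1 of the rest-arm exercised mice at 4 h (ZT8) was the highest of all libraries for Adipoq, Plin1, Cfd, Fabp4 and Scd1, and among the 5 highest for Cidec. Its log2 deviation from its group mean ran from 1.07 for Cidec to 1.45 for Adipoq, while the median deviation of all genes was -0.01. Its white adipocyte list lay 0.59 above the group mean at the median, with 26 of 33 genes above. Its red blood cell list deviated more (0.78, with 4 of 5 above), its slow fibre list lay at 0.56, its lymphocyte list (2 genes) at -0.57 and its endothelial list at -0.34. Replicate 2 of the rest-arm sham mice at 0 h (ZT4) was among the 5 highest for all 6 genes and the highest for Cidec, with deviations from 0.45 for Fabp4 to 1.20 for Scd1. Its white adipocyte list lay at 0.41, with 30 of 33 genes above, and its nerve list at 0.32. Replicate 5 of the rest-arm sham mice at 8 h (ZT12) was among the 2 lowest libraries for 5 of the genes, with deviations of -1.55 for Adipoq, -1.81 for Plin1, -1.54 for Cfd, -1.46 for Cidec and -0.82 for Scd1. Fabp4 deviated by only -0.31 in that library. Its white adipocyte list lay at -0.26 at the median, with 9 of 33 genes above 0. Its nerve list lay at -0.53, its macrophage list at -0.52, its endothelial list at -0.38, its progenitor list at -0.33, its red blood cell list at -0.32 and its slow fibre list at 0.30. The part of these other cells in the values of the 3 libraries was not tested. The 3 libraries correlated with their groups (median r of 0.97 for the first and the last and 0.98 for the sham library at 0 h) above the median library (0.96), and calls are given without them where they differ.

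Fabp4, Cfd and Adipoq moved with the length slope of the library. With group means removed, Fabp4 had r = -0.95 and rho = -0.95 with the slope over all libraries, so that 89.6% of its variance within groups went with the slope. Cfd had r = -0.72 (rho = -0.72) and Adipoq r = -0.68 (rho = -0.69), each with an adjusted p of 2.6e-05 over 18 relations by permutation within groups, where the permutation p of 1e-05 is the smallest that 100000 resamples can give. Plin1 (r = 0.03, adjusted p = 0.85) did not pass, while Cidec (r = -0.19, adjusted p = 0.048) and Scd1 (r = 0.25, adjusted p = 0.02) did with small coefficients. Leaving out the 2 libraries with the most distant slopes left r at -0.94 for Fabp4, -0.71 for Cfd and -0.67 for Adipoq. Over all genes the 5th and 95th percentiles of r were -0.90 and 0.88, so that Fabp4 lay beyond the lower one and the other members inside. By longest principal transcript, Fabp4 with 896 bases and Cfd with 922 are the shortest of the 6. By all annotated exons, the length used for the slope, Cfd has 922, Adipoq 1381, Cidec 1856, Fabp4 4489, Plin1 4649 and Scd1 4892. With the slope taken out, the SD of Fabp4 dropped to 0.21 log2, at the 18.5th percentile of all genes, whereas Plin1 (0.56), Scd1 (0.57), Cidec (0.56) and Adipoq (0.49) lay between the 94.7th and the 97.5th percentile and Cfd (0.44) at the 89.9th. The median over all genes was 0.29. The 18 relations also covered read depth and the total of the deposited values, both in log2. With the total, r was 0.68 for Fabp4, 0.53 for Adipoq and 0.43 for Cfd. With read depth it was -0.49, -0.40 and -0.35. Each had an adjusted p of at most 0.0004 by permutation, while Plin1, Cidec and Scd1 passed with neither.

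**Figure D2:**
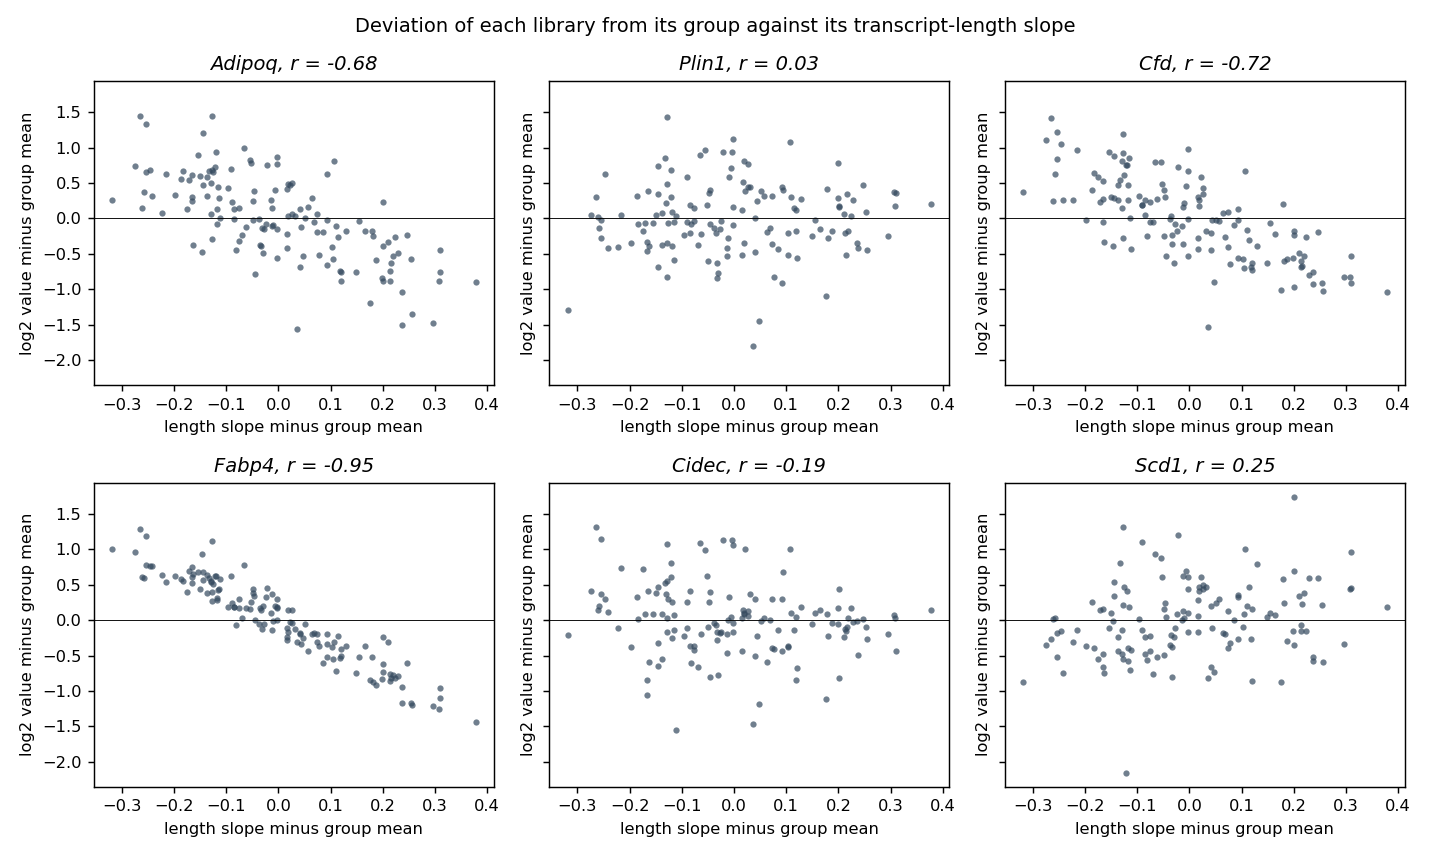
Deviation of each library from its group mean (vertical axis, log2 units) against its length slope minus the group mean (horizontal axis, log2 value per log2 length), 1 panel per gene and 1 point per library. Fabp4 follows the slope with r = -0.95, Adipoq and Cfd with -0.68 and -0.72, and Plin1 shows r = 0.03.

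The genes rose and fell together between libraries of the same group. Over the 15 pairs, Pearson's r of the deviations from group means had a median of 0.52 over all libraries, 14 of 15 coefficients were above 0, and 12 pairs passed an adjusted p of 0.05 by permutation within groups. The closest pair was the secreted proteins Adipoq and Cfd (r = 0.93). Both also followed Fabp4 (r = 0.77 each). The droplet gene Plin1 went with Scd1 (r = 0.70) and Cidec (r = 0.67), and Cidec with Cfd (r = 0.70). The 3 pairs that did not pass were Fabp4 with Scd1 (r = -0.09), Fabp4 with Plin1 (r = 0.11) and Cfd with Scd1 (r = 0.19, adjusted p = 0.054).

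With the length slope also removed, all 15 pairs passed, the median r was 0.66 and the coefficients ran from 0.32 for Fabp4 with Cidec to 0.86 for Adipoq with Cfd. Fabp4 with Scd1 then had r = 0.47. The first principal component of the 6 held 60.2% of their variance before and 68.9% after this step, with loadings of 1 sign for all 6 genes. The labels give no batch, so libraries were also split by replicate number (1 and 2, 3 and 4, 5 and 6). The median r of the 15 pairs in these 3 subsets was 0.58, 0.33 and 0.60 with group means removed, and 0.62, 0.55 and 0.76 with the slope also removed.

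**Figure D3:**
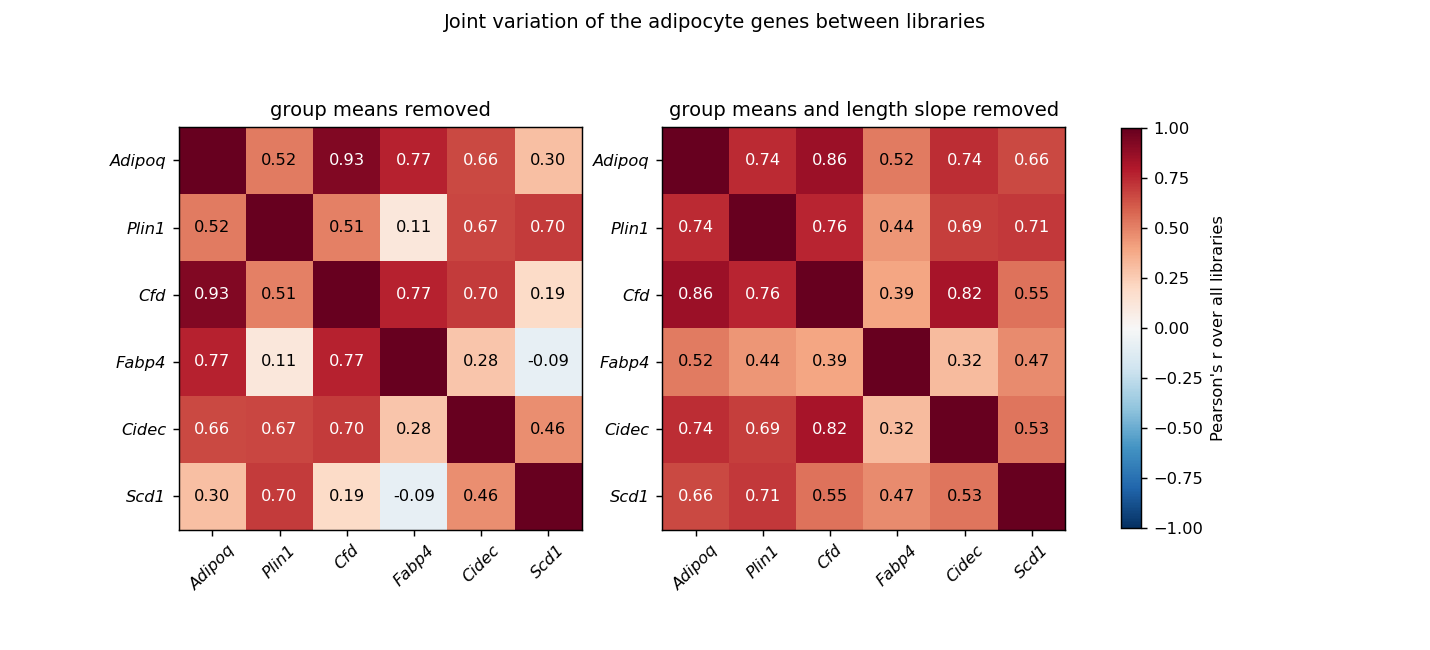
Pearson's r between the log2 deviations of each pair of genes over all libraries, with group means removed (left) and with the length slope also removed (right). Every pair is positive on the right, from 0.32 to 0.86, while Fabp4 with Scd1 is at -0.09 on the left.

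Genes outside the set were ranked by how closely their deviations followed the mean of the 6. The 10 nearest were Retn (r = 0.84), Cdo1 (0.81), Hp (0.76), Glb1l2 (0.75), Ankef1 (0.73), Orm1 (0.72), Serpina3c (0.72), Mrap (0.71), Thrsp (0.70) and Wfdc21 (0.70), over all libraries. Retn encodes the adipocyte hormone resistin, Cdo1 cysteine dioxygenase, Hp haptoglobin and Orm1 an acute-phase glycoprotein, and Mrap encodes an accessory protein of melanocortin receptors. Over the other 11455 genes the median r was -0.04. After the slope was removed, Cdo1 (0.80), Retn (0.79), Glb1l2 (0.73) and Cyp2e1 (0.72) led, and Lep (0.64) entered the first 10. These coefficients share libraries and scaling and are given as a description.

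Taken singly the members had different neighbours. Before the slope was removed, the genes nearest to Fabp4 were Psmb4 (r = 0.96), a proteasome subunit, Cnbp (0.96) and Laptm4a (0.95), none of which is an adipocyte gene. After it was removed they were Tspo (0.62), Eef1a1 (0.60) and Retn (0.59). Scd1 was nearest to Fasn (0.78), the fatty acid synthase, Lep (0.63) and Acaca (0.63), an acetyl-CoA carboxylase. Plin1 was nearest to Cdo1 (0.68) and Cidec to Cyp2e1 (0.69), while Retn was nearest to both Adipoq (0.84) and Cfd (0.86).

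With the slope removed, the white adipocyte list (33 of 36 genes measured) had a median r of 0.32 with the mean of the 6. In this list 17 genes (51.5%) exceeded 0.3, against 1.12% of all other genes. The share was 40% in the fatty acid synthesis list, 28.6% for nerve and Schwann cells, 16.7% for fibro-adipogenic progenitors and 7.69% for lipid droplets. It was 0% for macrophages, red blood cells, endothelium and both fibre lists. The fatty acid synthesis list had a median r of 0.26. The lipid droplet list, whose perilipins and lipases also serve muscle fibres, had one of 0.03. Lists of other cells gave 0.25 for nerve and Schwann cells, 0.22 for fibro-adipogenic progenitors (12 of 12 measured), 0.18 for macrophages, 0.15 for red blood cells and 0.07 for endothelium. Before removal of the slope the order differed. The median r was 0.46 for red blood cells, 0.36 for fibro-adipogenic progenitors and 0.30 for macrophages. It was 0.28 for fast fibres, 0.26 for slow fibres and 0.23 for white adipocytes.

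Exercised and sham mice of the same arm and hour were compared to see whether the bout changed adipocyte transcripts in the muscle. None of the 72 comparisons (6 genes, 6 hours, 2 arms) passed an adjusted p of 0.05 in limma, with p-values adjusted over all 11461 genes. edgeR and DESeq2 on the recovered reads also called 0, and 4 of the 72 had an unadjusted p under 0.05. Exercised and sham values overlapped in all 72. In the rest arm limma called 0.349% of all genes directly after the bout, 0.0175% after 4 h, 0.00873% after 8 h, 0.0524% after 12 h and 0% later. In the active arm it called 1.18% directly after the bout, 0.0175% after 4 h, 0.00873% after 12 h and 0% at the other hours. The share of members was thus at or below a background that was itself close to 0. The log2 differences ran from -1.36 to 0.67, 43 of them below 0, with a median of -0.08.

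The comparison with the smallest p was Plin1, the droplet coat protein, 12 h after the rest-phase bout (ZT16). The 6 exercised libraries held 0.417, 0.905, 1.66, 3.26, 3.90 and 4.78 scaled reads per M and the 6 sham libraries 2.51, 4.00, 5.60, 7.89, 8.24 and 11.1. 2 exercised libraries lay below 1 and 4 sham libraries lay above all exercised ones, but the ranges overlapped between 2.51 and 4.78. The difference was -1.36 ± 0.32 log2 (SE), with an adjusted p of 0.070 in limma, and 0.74 in edgeR and 0.34 in DESeq2. It lay at 0.68 with the libraries of these groups alone, 0.20 with a pseudocount of 2, and from 0.029 (without number 6) to 0.85 (without number 2) when both libraries of a replicate number were left out. Of these 6 fits only that without number 6 passed. It also fell under the threshold without the 3 libraries that stood apart (0.020), with the length slope as a covariate (0.044), with a pseudocount of 0.1 (0.040) and with the mean of the other members as a covariate (0.031). Without each of the 12 libraries in turn it ran from 0.017 to 0.57, and 4 of these 12 fits passed: those without exercised replicate 3 (0.044), 4 (0.035) or 6 (0.017) and the one without sham replicate 5 (0.028). The length slope averaged -0.10 ± 0.08 (SD, n = 6) in the exercised and 0.01 ± 0.18 (SD, n = 6) in the sham libraries.

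At that hour Scd1 averaged 90.1 ± 43.6 scaled reads per M (SD, n = 6) in exercised and 169 ± 66.97 (SD, n = 6) in sham mice. The Scd1 difference was -0.93 ± 0.33 log2 (adjusted p = 0.69 in limma). Cidec differed by -0.56 ± 0.32 log2, Cfd by -0.40 ± 0.36, Adipoq by -0.21 ± 0.38 and Fabp4 by 0.43 ± 0.37, each with an adjusted p of at least 0.72 in limma. The direction was therefore not shared by all 6.

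The other 2 comparisons with an unadjusted p under 0.05 were the secreted proteins 8 h after the active-phase bout (ZT0). Adipoq averaged 15.7 ± 3.95 scaled reads per M (SD, n = 5) after exercise and 30.2 ± 13.5 (SD, n = 6) after sham, a difference of -0.87 ± 0.39 log2 (adjusted p = 0.20 in limma). Cfd averaged 109.4 ± 34.4 (SD, n = 5) and 187 ± 68.6 (SD, n = 6), a difference of -0.77 ± 0.38 log2 (adjusted p = 0.20 in limma). For Adipoq 1 sham library held 56.9 and the next 28.01. In these groups the length slope averaged 0.12 ± 0.21 (SD, n = 5) after exercise and -0.08 ± 0.09 (SD, n = 6) after sham, and its part in the difference was not tested. At this hour 24.5% of all genes had an unadjusted p under 0.05.

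Right after the bout, Fabp4 averaged 272 ± 46.3 scaled reads per M (SD, n = 4) in exercised and 425 ± 90.1 (SD, n = 5) in sham mice of the rest arm, a difference of -0.63 ± 0.43 log2 (adjusted p = 0.42 in limma). Here too the slope differed, with -0.01 ± 0.03 (SD, n = 4) against -0.18 ± 0.06 (SD, n = 5). When the fit used the libraries of these groups alone, Fabp4 passed (adjusted p = 0.0093), as did 3653 of all 11461 genes. At 4 h all 6 genes were higher on average in exercised mice of both arms. The log2 differences ran from 0.14 ± 0.32 for Plin1 to 0.67 ± 0.37 for Fabp4 in the rest arm, and from 0.20 ± 0.34 for Plin1 to 0.57 ± 0.39 for Adipoq in the active arm. None passed (adjusted p of 0.93 to 0.94 in the rest arm and 0.53 to 0.75 in the active arm, limma).

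**Figure D4:**
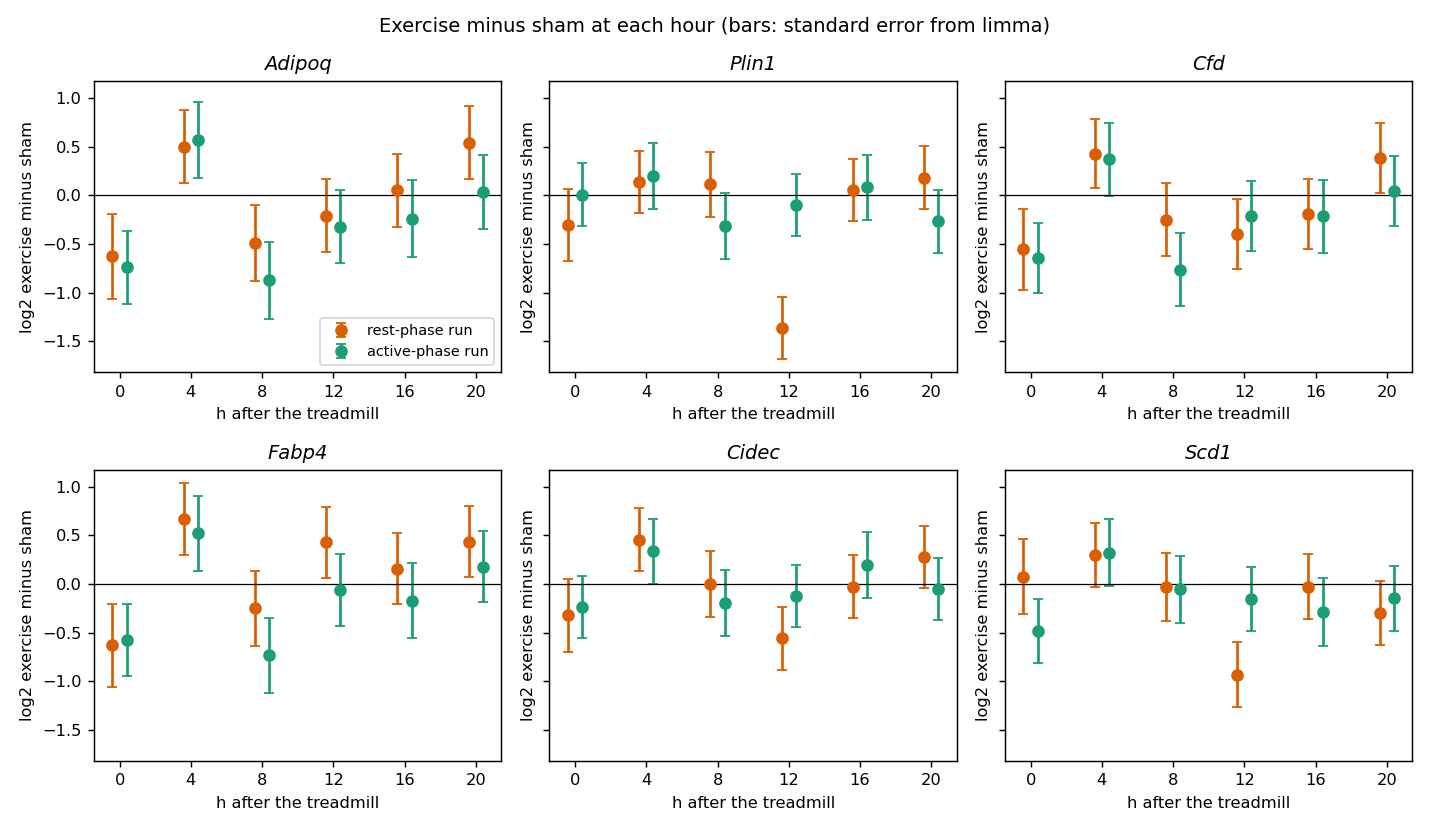
Exercised minus sham difference (vertical axis, log2 units, with its SE as bars) at each hour after the treadmill (horizontal axis, h) in the rest and active arms, 1 panel per gene. None of the 72 differences passed an adjusted p of 0.05, and the one farthest from 0 is Plin1 at 12 h in the rest arm, at -1.36.

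Averaged over the 6 hours, the exercised minus sham difference lay between -0.26 and 0.13 log2 in the 12 gene and arm combinations, 11 of them below 0. None passed in limma, edgeR or DESeq2 or had an unadjusted p under 0.05, with adjusted p from 0.55 in limma, while 0.288% of all genes passed in the rest arm and 0.497% in the active arm. The difference between the arms' responses was tested at each hour and on average. None of 42 such interactions passed in limma, edgeR or DESeq2, 1 had an unadjusted p under 0.05, and limma called 0% of all genes. That 1 was Plin1 at 12 h, with 1.26 ± 0.45 log2, active minus rest (adjusted p = 0.69 in limma).

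Clock time changed 5 of the 6 genes when the 4 series (2 arms, sham and exercised) were averaged. On this average they were higher at ZT0, 4 and 8 than at ZT12, 16 and 20. The arms differed at ZT12. There Scd1 averaged 85.7 in sham and 79.7 in exercised mice of the rest arm, against 195 and 183 in the active arm. Cidec averaged 5.71 and 5.10 against 10.7 and 10.3. In the active arm ZT12 was the highest time for Scd1 in sham and exercised mice, for Plin1 in sham mice, and for Adipoq and Cidec in exercised mice. The F test over the 6 clock times gave an adjusted p of 4.8e-08 for Cidec, 2.9e-07 for Plin1, 4.7e-05 for Cfd, 0.00022 for Adipoq and 0.028 for Scd1 in limma, and 0.45 for Fabp4, while 12.3% of all genes passed. Scd1 did not pass without replicate 2 (0.068), 3 (0.14), 4 (0.069) or 5 (0.13) or without the 3 libraries that stood apart (0.080), and the other 4 genes passed without those 3 libraries. This average over 4 series and the test in exercised mice were chosen after the tests in sham mice had been seen, and they share those libraries.

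Among the droplet genes, Cidec had medians of 7.46, 10.1, 9.20, 7.94, 5.44 and 4.52 scaled reads per M at ZT0, 4, 8, 12, 16 and 20. Its 21 libraries at ZT4 ran from 6.28 to 25.8 and its 23 libraries at ZT20 from 1.11 to 9.04, so that the ranges overlapped. From ZT20 to ZT4 the group means differed by 1.12 ± 0.17 log2 (SE), or 2.17-fold. Plin1 had medians of 6.33, 6.65, 6.29, 5.73, 4.01 and 3.56 at the same times, and its highest and lowest clock times, ZT4 and ZT20, differed by 0.89 ± 0.17 log2. The droplet genes thus had their highest medians at ZT4 and their lowest at ZT20.

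For the secreted proteins, Cfd had medians of 137.8, 151, 135.9, 89.6, 98.6 and 72.6 scaled reads per M at ZT0, 4, 8, 12, 16 and 20, a difference of 0.96 ± 0.19 log2 between ZT4 and ZT20. Adipoq had medians of 24.6, 26.9, 27.002, 16.1, 17.4 and 13.4, and also differed by 0.96 ± 0.20 log2 between ZT4 and ZT20, with mean values of 29.4 and 14.5. Both had lower medians at ZT12 than at ZT8. Scd1 had group means of 177 at ZT8 and 114.2 at ZT20, a difference of 0.57 ± 0.17 log2, and Fabp4 had 302 at ZT4 and 224 at ZT12, a difference of 0.41 ± 0.20 log2 that did not pass.

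Fabp4 passed when the length slope of the library entered the model (adjusted p = 1.0e-11 in limma) and with array weights (0.0023). It passed under none of the other alternatives. Of all 11461 genes, 2959 passed with the slope in the model and 60.5% with array weights. At equal slope the level of Fabp4 was 287 scaled reads per M at ZT8 and 206 at ZT16, a difference of 0.47 log2. The differences of the other genes at equal slope were 1.10 for Cidec, 0.92 for Adipoq, 0.89 for Plin1, 0.89 for Cfd and 0.55 for Scd1. The mean length slope by clock time lay between -0.06 at ZT16 and 0.04 at ZT8.

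**Figure D5:**
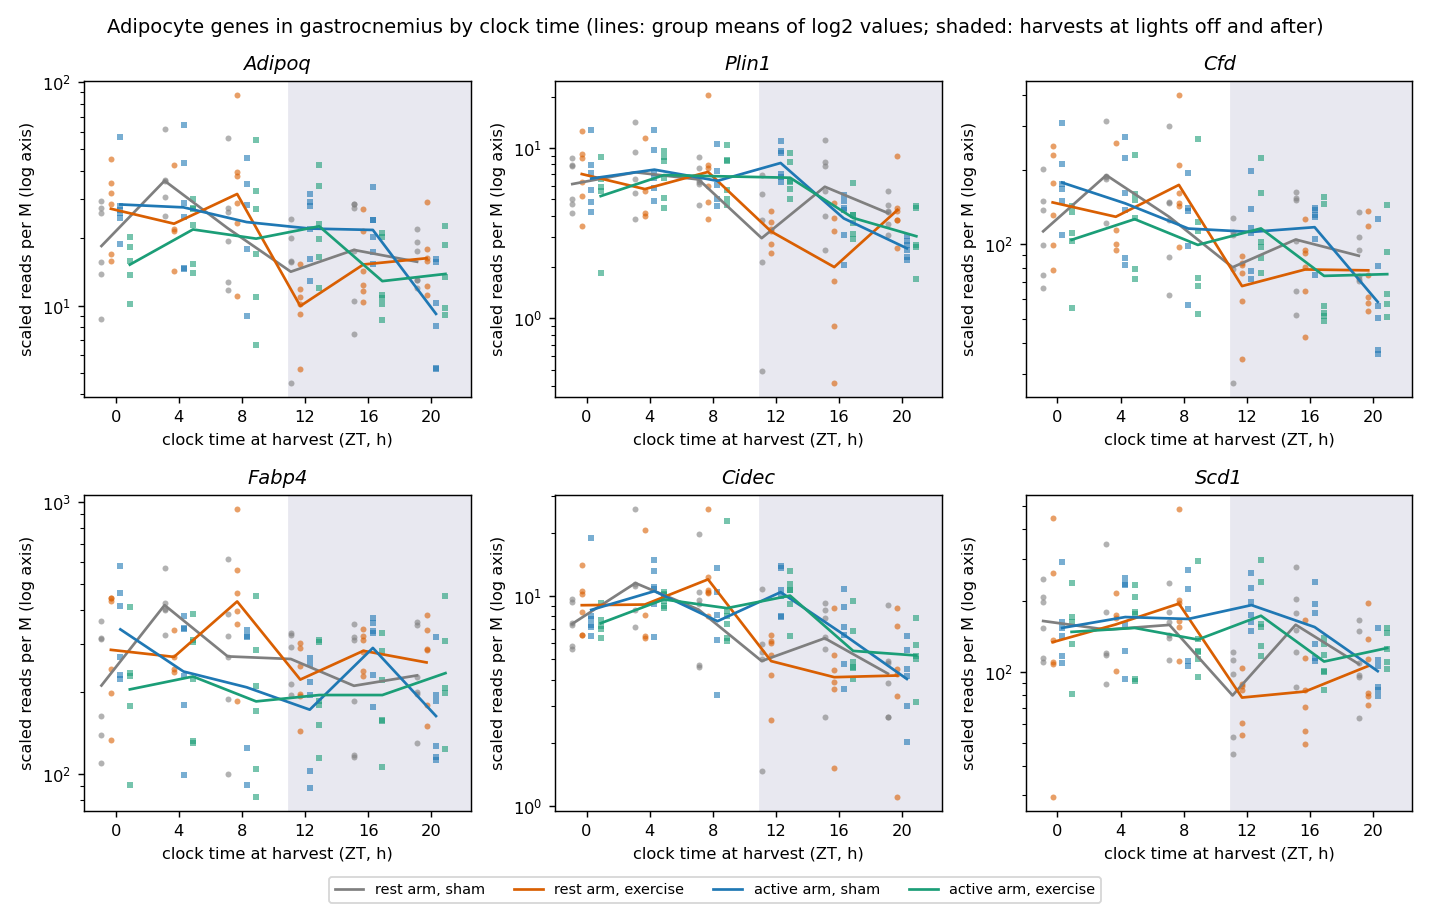
Scaled reads per M (vertical log axis) at each clock time (horizontal axis, ZT in h) for the 6 genes, 1 point per library, with the 4 series of sham and exercised mice in both arms distinguished. Cidec and Plin1 have their highest medians at ZT4 and their lowest at ZT20, with overlapping ranges.

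In sham mice alone, clock time passed for 4 genes in the active arm and for none in the rest arm. In the active arm the adjusted p in limma was 0.0017 for Plin1, 0.018 for Adipoq, 0.024 for Cfd, 0.024 for Cidec, 0.12 for Fabp4 and 0.21 for Scd1, and 6.94% of all genes passed. Plin1 ran from 6.33 to 11.0 scaled reads per M with a median of 8.16 at ZT12, and from 2.21 to 3.02 with a median of 2.60 at ZT20. The 6 libraries of ZT12 and the 6 of ZT20, the highest and lowest times of Plin1 in this series, did not overlap. Their means were 8.33 ± 1.88 and 2.59 ± 0.318 (SD, n = 6 each). Cidec did not overlap between these groups either, with at least 7.94 at ZT12 and at most 6.48 at ZT20. The share of all genes that separate in this way is not given. The number of calls depended on the ZT20 group: without its replicate 1, 2 or 4, only 1, 2 and 2 of the 4 genes passed, Plin1 among them each time. The ZT20 group had a mean length slope of 0.10 ± 0.17 (SD, n = 6), against -0.16 ± 0.08 (SD, n = 6) at ZT16.

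In rest-arm sham mice none of the 6 passed in limma, with 0.986% of all genes called. 5 had an unadjusted p under 0.05, and Cidec had the lowest adjusted p (0.11). edgeR called none and DESeq2 called Cidec (adjusted p = 0.024). Whether the clock-time profiles of the sham arms differ was tested directly: none of the 6 passed in the F test, where 0.768% of all genes did, or in the mean difference, where 0% did. Plin1 was closest, with an adjusted p of 0.093 in limma. Its rest-arm sham mean was 3.76 ± 2.57 scaled reads per M at ZT12 (SD, n = 5), against 8.33 ± 1.88 in the active arm. edgeR and DESeq2 called 0 in this comparison as well, and 3 of the 12 tests had an unadjusted p under 0.05.

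In exercised mice the calls lay in the rest arm, where 5 genes passed in limma, Plin1 (adjusted p = 0.00029), Cidec (0.00065), Adipoq (0.017), Cfd (0.022) and Scd1 (0.024), with 3.13% of all genes called. Fabp4 did not pass (0.64). In the active arm none passed in limma, edgeR or DESeq2, with 4.47% of all genes called by limma. Plin1 (0.084) was closest, and 2 genes had an unadjusted p under 0.05. Plin1 averaged 8.43 ± 6.05 scaled reads per M (SD, n = 6) at ZT8 and 2.49 ± 1.75 (SD, n = 6) at ZT16 in rest-arm exercised mice. The difference between exercised and sham profiles was tested itself and passed for no gene in limma, edgeR or DESeq2 (lowest adjusted p 0.46 in limma), with 0.096% of all genes called in the rest arm and 0.253% in the active arm. 1 of these 12 tests had an unadjusted p under 0.05, Plin1 in the rest arm.

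Other adipocyte genes changed with clock time over the 4 series. Of the 33 measured white adipocyte genes 14 passed in limma, against 12.3% of all genes: Lep, Retn, Pparg, Cebpa, Lipe, Cd36, Acvr1c, Aqp7, Sncg, Trarg1, Pck1, Aoc3, Npr3 and Tmem45b. Each had its highest mean between ZT0 and ZT8 and its lowest between ZT12 and ZT20. Pck1, which encodes the glyceroneogenic enzyme PEPCK, averaged 10.6 scaled reads per M at ZT4 and 2.72 at ZT20, a difference of 1.73 log2 (adjusted p = 8.2e-13 in limma). Cebpa, a transcription factor of the adipocyte programme, averaged 6.52 at ZT8 and 3.89 at ZT16. In the fatty acid synthesis list 5 of 15 measured genes passed. Acly (19.4 at ZT0, 15.4 at ZT12), Elovl6 (1.89 at ZT0, 1.14 at ZT16) and Tkt (15.001 at ZT0, 11.2 at ZT12) had their highest means in the light, like Scd1. Thrsp (40.3 at ZT16, 26.2 at ZT8) and Pnpla3 (6.62 at ZT16, 3.55 at ZT8) had theirs in the dark.

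Summed levels of marker lists also varied with clock time, with no test of the sums. The summed level of the 6 genes was 681 scaled reads per M at ZT8 and 455 at ZT20, a ratio of 1.496. The 33 white adipocyte genes summed to a ratio of 1.12, highest at ZT0 and lowest at ZT16. The sum of the 7 measured nerve and Schwann cell genes was highest at ZT8 and lowest at ZT20, with a ratio of 1.41. That of the 12 fibro-adipogenic progenitor genes was also highest at ZT8 and lowest at ZT20, with a ratio of 1.33. Of these lists 2 of 7 and 3 of 12 genes passed, against 12.3% of all genes, among them Col1a1 (334 at ZT8, 202 at ZT20) and Col3a1 (444 at ZT8, 243 at ZT20). The summed fast fibre genes were highest at ZT16 and lowest at ZT0, with a ratio of 1.33. The part of these other cell types in the clock-time differences of the adipocyte genes was not tested.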

How the data were processed

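Gastrocnemius RNA was sequenced after ribosomal RNA depletion with a stranded protocol as 100-bp paired ends, per the labels' protocols. Per the submitters' processing notes, which give no roles or settings, the tools were STAR 2.5.3a, featureCounts 1.5.2, edgeR 3.2.23, cutadapt 1.16, Trim Galore 0.4.3 and FastQC 0.11.5, and the build was mm10 (GRCm38). The deposited values are a signal, reads per M (1e+06) of a library size scaled by the authors. Each value came out as a whole number of reads (tolerance 0.05 read) in 100% of cases in all 137 libraries, which gave the depth. Counting SDs cover counting error only, whereas the SDs and SEs given with ± come from the spread between libraries.

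Because the values are not counts, the test was limma 3.58.1 in R 4.3.3 on log2(value + 0.5), with 1 model of 24 groups, a mean-variance trend, robust moderation and Benjamini-Hochberg adjustment over 11461 genes, in place of the edgeR test planned for counts. A fold change on this scale understates low genes. edgeR 4.0.16 and DESeq2 1.42.0 on the recovered reads were alternatives. For clock time over 4 series edgeR called 1478 genes and limma 1406. Other alternatives were pseudocounts, filters, scaling, array weights, covariates and left-out libraries. The limma fit was tested on simulated reads, with each gene drawn independently. For exercise at 12 h in the rest arm it recovered 20% of changes of 0.5 log2 and 78% of 1 log2, with 14 false calls. For clock time in active-arm sham mice it recovered 14% and 74%, with 10 false calls. Identifiers matched the annotation for 11449 of 11461 genes.

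The members, gene lists and tests were chosen with earlier results of these data known. Genes outside the members were named as the 10 with the highest r to the members' mean, the 3 nearest to each member, and list genes that passed. Same-numbered replicates did not deviate together in all pairs of any comparison (36 of 66 pairs above r = 0.1), so numbers were not taken to pair samples.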

Additional observations from a re-analysis of the deposited data

Results flagged for a closer look

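6 combinations of group and gene held 1 library far from the rest of its group, by the gap to the nearest library relative to the range of the group. They are 4.17% of the combinations tested, and chance alone gives about 1 in 20. In the rest arm, exercised replicate 1 at 4 h had 25.8 scaled reads per M for Cidec, with 12.3 in the next library, and sham replicate 5 at 8 h had 4.50 for Adipoq, with 15.6 in the next. Sham replicate 2 at 8 h in the active arm was high in 2 genes, with 56.9 for Adipoq (next 28.01) and 18.9 for Cidec (next 8.02). At 16 h in the active arm, exercised replicate 6 had 22.6 for Cidec (next 8.45) and exercised replicate 5 had 295 for Scd1 (next 138.1). None of these values was removed from the tests.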

How the results depend on the processing

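Of the 72 exercised against sham comparisons, 0 passed in the fit described. 1 passed with a pseudocount of 0.1, with the length slope in the model, without 2 or all 3 of the libraries that stood apart and with the other members as a covariate, in each case Plin1 at 12 h in the rest arm. 1 passed with own libraries alone (Fabp4, rest arm, 0 h), and 0 to 2 passed without 1 replicate number each. Array weights gave 8, and also 2 for exercise averaged over hours, 4 for the arm interaction, 6 for the sham arms and 8 for clock time by exercise, each against 0. With these weights 54.2% of all genes passed at 20 h in the rest arm and 44.2% at 8 h in the active arm. For exercise averaged over hours in the active arm 39.6% of all genes passed. The interaction gave 36.3% at 20 h and 33.2% on average, and the F test of the sham arms 57.1%. Clock time by exercise gave 50.7% of all genes in the rest arm and 58.0% in the active arm. For clock time in sham mice (4 calls) array weights gave 11, the other members as a covariate 1 and a cosine fit 1, and leaving out a replicate number 1 to 4. Array weights called 66.4% of all genes there in the rest arm and 75.9% in the active arm. In exercised mice (5 calls) the length slope and array weights each gave 9, the other members 1, and leaving out a replicate number 1 to 5. Of the 11461 genes the length slope fit called 1441 in the rest arm and 1196 in the active arm. Array weights called 28.3% and 25.1% of them. Over 4 series (5 calls) the other members as a covariate left 2, and leaving out a replicate number 4 to 5. That covariate also gave 1 call between the sham arms (Plin1).

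The median pair r of 0.52 became 0.66 after the length slope and 0.67 after slope and replicate strata. Fabp4 with Scd1 reversed from -0.09 to 0.47 and 0.48. A replicate block left 0 exercise calls, 4 clock-time calls in sham mice and 5 over 4 series, and changed no other member count. The cause of these shifts was not tested. Depth limits Plin1 and Cidec, with as few as 3 and 7 reads in a library.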
